A study of Mus musculus with 18 samples.

Results

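Lamin B domains and H3K9me2 domains of the same cardiomyocytes were laid over each other to ask how far a lamina domain is also an H3K9me2 domain, where the edges of both fall, and which H3K9me2 domains lie away from the lamina. The domains came from wild-type cardiomyocytes (CM) made in culture from mouse embryonic stem cells (ESC) kept in serum-free, feeder-free medium and differentiated as embryoid bodies, first with ascorbic acid, Activin A, BMP4 and VEGF and then with VEGF, bFGF and XAV, and collected on day 10. Chromatin was crosslinked with formaldehyde and pulled down with an antibody to Lamin B or to H3K9me2. The labels name no share of cardiomyocytes in the culture, and lists of domains hold no marker gene levels against which the cell type could be checked. All domains on chromosomes 1 to 19 were taken, which gave 826 of the 933 CM Lamin B domains and 1140 of the 1240 CM H3K9me2 domains, or 1966 of the 5624 domains in the 4 lists of the series. The other 2 lists are those of ESC, and the libraries that name them came from wild-type cells and from a CMV-creERT; Hdac3f/f line, for Lamin B also after deletion of Hdac3 (Hdac3-/-). The series holds 18 libraries, of which 2 Lamin B and 2 H3K9me2 libraries name the CM lists in their labels, which leave out how both were combined.

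Lamin B is a filament protein of the nuclear lamina, the meshwork under the inner nuclear membrane. Chromatin that touches the lamina forms long lamina-associated domains, which are mostly poor in active genes and replicate late. H3K9me2 is the dimethylated form of a lysine on histone H3, written mainly by the methyltransferases G9a and GLP, and it covers broad blocks of silent chromatin, many of them at the nuclear edge. As stem cells become heart cells, some genes of the cardiac programme are known to leave the lamina.

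Each list was deposited once for its libraries, so the values below have no replicate error, the sequencing depth is unknown, and no test was made. Intervals in brackets are 95% intervals, Wilson intervals for shares and order-statistic intervals for medians. They count each domain as a separate draw, although neighbours are not, and hold counting error alone. On the autosomes CM Lamin B covered 1097 Mb, 45.9% of the 2391 Mb between the first and last domain of each chromosome, and CM H3K9me2 covered 1295 Mb or 54.2%. The edges of Lamin B domains lay on a grid of 11 kb and those of H3K9me2 domains on a grid of 20 kb, so edge distances up to 20 kb were read as unresolved. Domains were grouped by length into those under 200 kb, those from 200 kb to 1 Mb, and those of 1 Mb or more.

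Most CM Lamin B domains lay almost wholly inside H3K9me2 domains. The rest split into a small partly covered group and a group that no H3K9me2 domain touched. Here and below, a domain without H3K9me2 is one without a called H3K9me2 domain, since the lists hold no signal outside domains. Of the 826 domains, 678 (82.1%, 79.3 to 84.5) had H3K9me2 over at least 90% of their length, and 419 (50.7%, 47.3 to 54.1) were covered completely. No H3K9me2 domain touched 81 of them (9.81%, 7.96 to 12.0). Partial coverage was rare, since 60 domains lay between 50% and 90% and only 7 between 0% and 50%. H3K9me2 covered 96.0% of Lamin B sequence and 18.7% of the autosomal sequence outside Lamin B domains.

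Coverage depended on the length of the Lamin B domain. The share with at least 90% coverage was 156 of 227 (68.7%, 62.4 to 74.4) under 200 kb, 293 of 357 (82.1%, 77.8 to 85.7) from 200 kb to 1 Mb, and 229 of 242 (94.6%, 91.0 to 96.8) at 1 Mb or more. Domains without any H3K9me2 made up 51 of 227 (22.5%) in the shortest class and 30 of 357 (8.40%) in the middle class, and there were none among the 242 longest, whose lowest coverage was 60.7%. The intervals of the 3 classes did not overlap for the share with at least 90% coverage. They treat neighbouring domains as separate draws, so this is no test between the classes. Counted in the same way, the 0 of 242 allows up to 1.56% without H3K9me2. Complete coverage did not follow this order, at 48.5%, 55.7% and 45.5%. The midpoint of the domain is a single base, so a longer domain offers no more bases to be hit. In a long domain it still lies farther from both edges, so it does not take out length altogether. The midpoint lay in H3K9me2 for 76.2% (70.3 to 81.3), 91.0% (87.6 to 93.6) and 98.8% (96.4 to 99.6) of domains, above the 54.2% of the span that H3K9me2 holds.

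**Figure D1:**
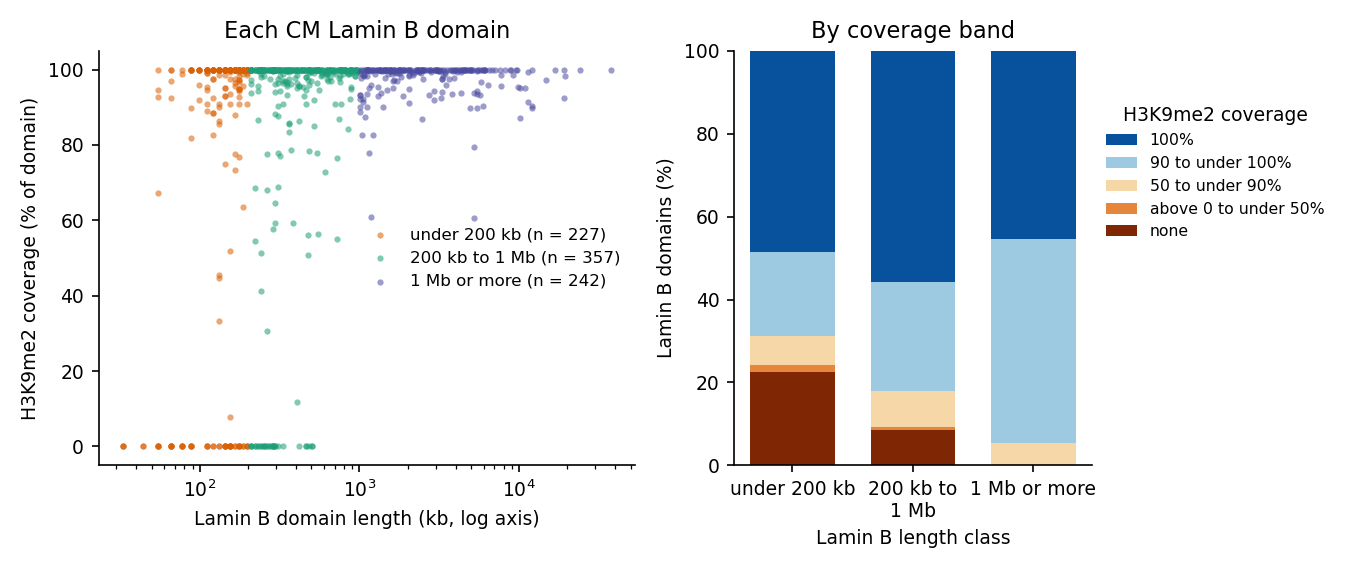
H3K9me2 coverage of the 826 CM Lamin B domains. Left, each point is 1 domain, with its length in kb on a log axis and the percent of it in H3K9me2 on the vertical axis. Right, stacked bars give the share of domains in 5 coverage bands for each length class. Points gather at 100% and, below 1 Mb, at 0%, and the dark bar of domains without H3K9me2 shrinks from 22.5% to 8.40% to none.

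The 81 Lamin B domains without H3K9me2 held 14.9 Mb and had a median length of 165 kb, against 522 kb for domains with at least 90% coverage. The longest were chr1:162151001-162657000 and chr12:79332001-79838000 (mm9, 506 kb each), chr8:131252001-131736000 (484 kb), chr12:41822001-42284000 (462 kb) and chr15:35343001-35805000 (462 kb). Their surroundings differed. The nearest CM H3K9me2 domain was 51 kb from the chromosome 1 domain and 32 kb from the first chromosome 12 domain, but 1403 kb from the chromosome 15 domain. ESC Lamin B covered 81.8% and 100% of those first 2, while the chromosome 15 domain and chr12:41822001-42284000 had neither Lamin B nor H3K9me2 in ESC. The chromosome 8 domain had no Lamin B in ESC and 95% ESC H3K9me2.

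Over all 81, the median distance to the nearest H3K9me2 domain was 136 kb, and 35 lay within 100 kb of one. In the ESC lists 38 of the 81 (46.9%) were at least 50% Lamin B and 29 (35.8%) at least 50% H3K9me2, and 26 were touched by neither list. Among the 678 well-covered CM domains, which were longer, the shares for ESC Lamin B and ESC H3K9me2 were 75.4% and 94.4%. At most 13 of the 678 were touched by neither list, since ESC H3K9me2 left only 13 untouched. Within length classes the shares for ESC Lamin B were nearer to each other, 35.3% of uncovered against 46.8% of well-covered domains under 200 kb and 66.7% against 73.0% from 200 kb to 1 Mb. Those for ESC H3K9me2 stayed far apart, 41.2% against 89.1% and 26.7% against 92.8%. The authors' score per Mb, on a scale the labels do not explain, had a median of 43.5 in uncovered against 35.4 in well-covered domains under 200 kb, and of 36.8 against 38.1 from 200 kb to 1 Mb. The quartiles of the groups overlapped in both classes, at 31.4 to 62.2 against 26.9 to 45.6 and at 28.1 to 43.6 against 27.4 to 48.4. The 7 domains that were touched but under 50% covered were led by chr13:32021001-32428000, with 11.8% of 407 kb in H3K9me2, and chr19:27819001-28083000, with 30.7% of 264 kb.

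A Lamin B domain usually met a single H3K9me2 domain. Exactly 1 was touched by 682 of 826 (82.6%, 79.8 to 85.0), 2 by 45 and 3 or more by 18. Contact with several was found mainly in longer domains, with 1 case under 200 kb, 12 (3.36%) from 200 kb to 1 Mb and 50 of 242 (20.7%) at 1 Mb or more. A longer domain has more room for a break in H3K9me2, so this count alone follows length. The H3K9me2 gaps inside Lamin B domains numbered 98, with a median of 120 kb of Lamin B sequence (quartiles 40 and 220 kb) and a longest of 980 kb.

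The most divided Lamin B domain, chr4:12111001-31328000 (mm9, 19.2 Mb), touched 8 H3K9me2 domains. They left 7 gaps of 40 to 500 kb, and still covered 92.5% of the domain. The next were chr9:3003001-13167000 with 5 H3K9me2 domains and 87.1% coverage, chr3:59125001-65098000 with 5 and 90.3%, chr7:67034001-70807000 with 5 and 93.6%, and chr10:45100001-57167000 with 4 and 89.7%. The longest Lamin B domain, chr14:80498001-118173000 (37.7 Mb), was at the other extreme, since it lay completely inside 1 H3K9me2 domain, chr14:80180001-118180000, the longest of its list.

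Low coverage of a long Lamin B domain was exceptional. The lowest values at 1 Mb or more were 60.7% for chr3:154363001-159599000, 60.8% for chr3:66044001-67221000 and 77.9% for chr17:22506001-23661000. In the first of these, 5.24 Mb at the distal end of chromosome 3, the 2059 kb without H3K9me2 formed 1 stretch at the end of the domain. Neither ESC list had a domain there, and the copy number of this segment was not analysed here. These 3 domains were picked after their values were seen.

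**Figure D2:**
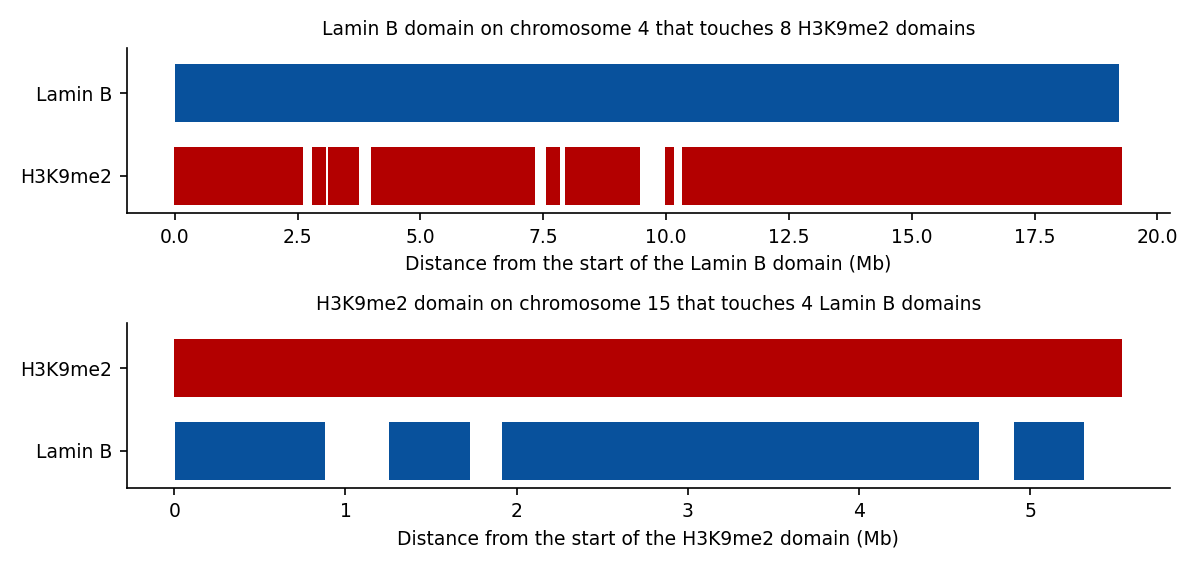
Maps of 2 domains on scales of distance from the domain's start in Mb. In the upper map, 1 Lamin B domain on chromosome 4 (blue) lies over 8 H3K9me2 domains (red) with gaps of 40 to 500 kb between them. In the lower map, 1 H3K9me2 domain on chromosome 15 (red) lies over 4 Lamin B domains (blue) with gaps of 187 to 374 kb.

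At the edges, H3K9me2 more often ran past the end of a Lamin B domain than stopped short of it. The outermost base of the Lamin B domain lay in H3K9me2 at 1146 of 1652 edges (69.4%, 67.1 to 71.5). The share was 62.1% (57.6 to 66.5) for domains under 200 kb, 71.0% (67.6 to 74.2) from 200 kb to 1 Mb and 73.8% (69.7 to 77.5) at 1 Mb or more, where the intervals of the last 2 classes overlap. Both edges were covered in 446 domains (54.0%), 1 edge in 254 (30.8%) and neither in 126 (15.3%). Of the 506 edges outside H3K9me2, 162 belonged to domains without any. At the other 344, the first H3K9me2 base inside the domain was a median of 10 kb (9 to 12) away, and 244 of them (70.9%) were within 20 kb. In all, 1390 of 1652 edges (84.1%) were covered or within 20 kb of H3K9me2 inside the domain.

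From a covered edge, the H3K9me2 domain went on outward for a median of 78.5 kb (69 to 93), with quartiles of 15 and 277 kb. The medians were 102 kb (75 to 145), 94 kb (73 to 113) and 55 kb (40 to 69) from the shortest to the longest Lamin B class. At 325 covered edges (28.4%) the distance was at most 20 kb, and at 516 (45.0%) it was over 100 kb. The 5 longest started from Lamin B domains, 4 of them under 200 kb, that shared a long H3K9me2 domain with others. From chr6:8470001-8580000 (110 kb) H3K9me2 ran 19.5 Mb to the right, and from chr6:8789001-8888000 (99 kb) 19.2 Mb, within the same H3K9me2 domain chr6:8480001-28080000. From chr4:63448001-63602000 it ran 18.3 Mb to the right and from chr4:80586001-81818000 (1232 kb) 17.4 Mb to the left, both inside chr4:63220001-81940000. The fifth was 5.17 Mb to the right of chr3:146476001-146575000.

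Such edges face another Lamin B domain under the same H3K9me2 domain, so the distance is not a margin. It runs across the gap and the other Lamin B domain or domains to the far end of the H3K9me2 domain. There were 226 of them, with a median of 673 kb. At the other 920 covered edges the H3K9me2 margin had a median of 46 kb (39 to 53), with quartiles of 10 and 135 kb, and its medians in the 3 length classes, 45, 51 and 39 kb, had overlapping intervals (31 to 59, 40 to 69 and 29 to 54). The longest margins were 1373 kb left of chr12:27313001-27731000, 1168 kb left of chr3:38808001-40282000 and 1007 kb right of chr14:29436001-29733000, the only ones of at least 1 Mb. This split of the edges was added after the distances were seen.

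Covered and uncovered edges were then put on 1 scale, with margins counted as positive and uncovered edges as negative. The 162 edges of domains without H3K9me2 have no such position and were left out, as were the 226 facing another Lamin B domain. Over 1264 edges the median was 15 kb (11 to 20), which is inside the 20 kb that the grids leave unresolved. H3K9me2 ended within 20 kb of the Lamin B edge at 569 edges (45.0%), more than 20 kb beyond it at 595 (47.1%) and more than 20 kb short of it at 100 (7.91%). Resolved edges thus fell 5.95 times as often on the outer side, or 2.27 times with the 162 edges of domains without H3K9me2 counted as short (262 in all). H3K9me2 domains also held more of the span than Lamin B domains, 54.2% against 45.9%, and the part of that difference in the edge values was not tested. From the shortest to the longest class, 48.3%, 48.6% and 44.4% of edges were beyond and 4.87%, 7.78% and 9.91% short. The ratio of both was 9.92, 6.26 and 4.48, with the edges of domains without H3K9me2 left out. Those left out numbered 102, 60 and 0, against 129, 269 and 197 edges beyond and 13, 43 and 44 short. Counted as short, they reverse the order of the classes, so these ratios show no trend with length.

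**Figure D3:**
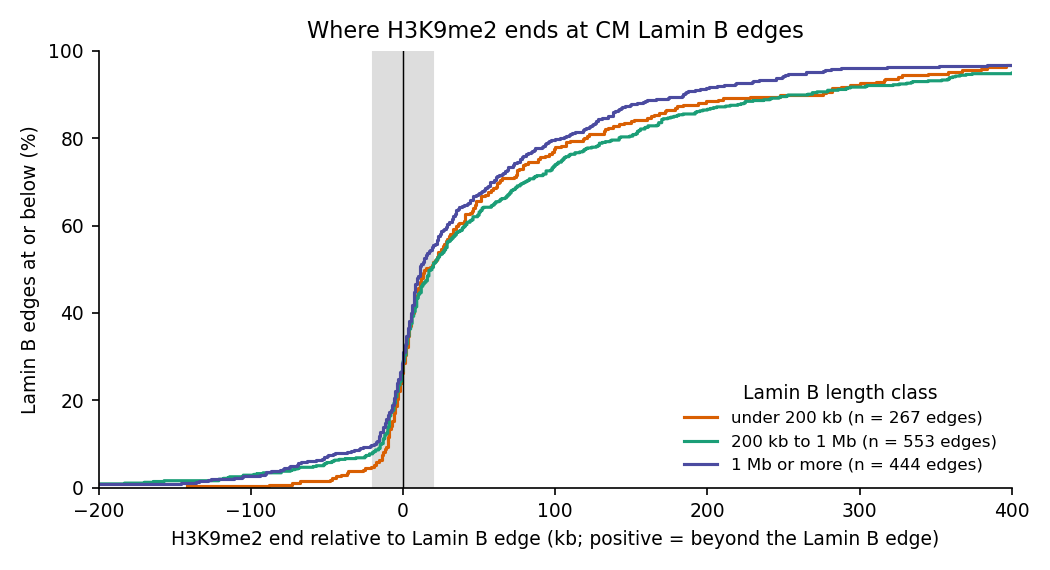
Cumulative share of CM Lamin B edges (vertical axis, percent) by the position at which H3K9me2 ends relative to the Lamin B edge (horizontal axis, kb, positive beyond the edge), 1 line for each Lamin B length class. The grey band marks 20 kb on each side, the unresolved range. Domains without H3K9me2 and edges facing another Lamin B domain of the same H3K9me2 domain are left out. The lines of the 3 classes run close together, steep inside the band and with a longer tail on the positive side.

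In 480 pairs, 1 Lamin B domain touched 1 H3K9me2 domain that touched no other. Of their 960 edges, 46.0% had H3K9me2 ending more than 20 kb beyond and 7.71% more than 20 kb short. H3K9me2 was the longer of the pair in 378 (78.8%), with median lengths of 720 kb for H3K9me2 and 528 kb for Lamin B. The median length ratio was 1.36 for Lamin B domains under 200 kb, 1.12 from 200 kb to 1 Mb and 1.02 at 1 Mb or more. In kb the classes were alike, with signed medians at the edges of 13, 15 and 13.5 kb and overlapping intervals. The median Lamin B lengths by which such distances are divided were 154, 440 and 2128.5 kb. Both ends agreed within 20 kb in 119 pairs (24.8%). H3K9me2 reached more than 20 kb beyond both ends in 125 pairs and beyond 1 end in 192.

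Seen from H3K9me2, contact with the lamina depended steeply on domain length. Of the 1140 CM H3K9me2 domains, 730 (64.0%, 61.2 to 66.8) shared sequence with a Lamin B domain and 410 (36.0%) did not. Contact was found for 79 of 238 (33.2%, 27.5 to 39.4) under 200 kb, 342 of 582 (58.8%, 54.7 to 62.7) from 200 kb to 1 Mb and 309 of 320 (96.6%, 94.0 to 98.1) at 1 Mb or more. The midpoint of the domain, again farther from the edges in long domains, gave the same order. It lay inside Lamin B for 31.1% (25.6 to 37.2), 53.1% (49.0 to 57.1) and 90.9% (87.3 to 93.6). Against the 45.9% of the span that Lamin B holds, midpoints of H3K9me2 domains under 200 kb lay in Lamin B less often and those of 1 Mb or more about 2 times as often.

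Domains on either side of a class border can be set side by side at the nearest lengths the grid allows. Just under 200 kb, 21 of 51 H3K9me2 domains of 180 kb had contact, and at 200 kb 18 of 54 did. At 980 kb 7 of 7 had contact, and at 1000 kb 4 of 7. Lamin B domains of 198 kb touched H3K9me2 in 15 of 18 cases and those of 209 kb in 14 of 17.

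Where there was contact, it was mostly extensive. The median Lamin B coverage of contacted H3K9me2 domains was 94.3% under 200 kb, 88.3% from 200 kb to 1 Mb and 96.4% at 1 Mb or more, and 128 of the 730 lay completely inside a Lamin B domain or domains. Coverage under 50% was found in 76 contacted domains, 49 of them from 200 kb to 1 Mb. Over all sequence, Lamin B held 29.0% of the H3K9me2 in domains under 200 kb, 52.0% in the middle class and 91.1% in the longest class, which itself made up 992 Mb of the 1295 Mb.

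**Figure D4:**
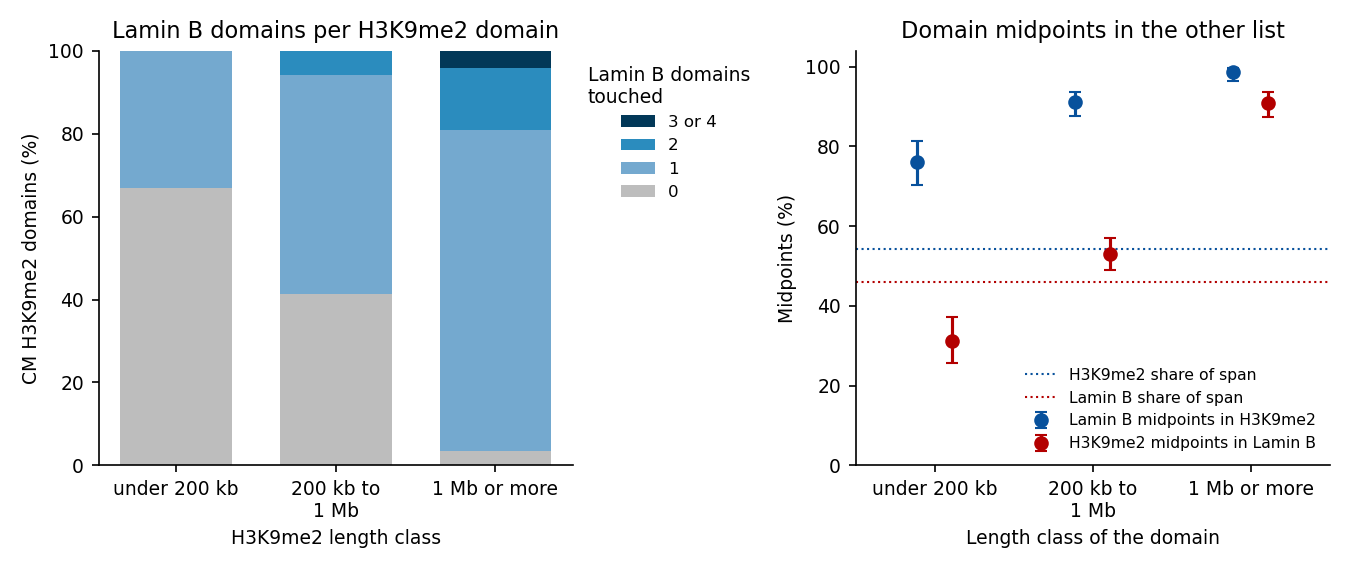
CM H3K9me2 domains and Lamin B by length class. Left, stacked bars give the percent of H3K9me2 domains that touched 0, 1, 2, or 3 or 4 Lamin B domains. Right, points are the percent of domain midpoints that lie in the other list with 95% Wilson intervals, and dotted lines the percent of the span in each list. Contact climbs from 33.2% to 58.8% to 96.6%, and only the shortest H3K9me2 domains have fewer midpoints in Lamin B than the span as a whole.

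The 410 H3K9me2 domains without Lamin B held 126.6 Mb. Their median length was 220 kb, and 159 were under 200 kb, 240 from 200 kb to 1 Mb and 11 at 1 Mb or more. The longest were chr15:86320001-88460000 (mm9, 2.14 Mb), chr9:116420001-117940000 (1.52 Mb), chr12:107720001-109100000 (1.38 Mb), chr8:120480001-121820000 (1.34 Mb) and chr8:117600001-118880000 (1.28 Mb). The chromosome 15 domain lay 1003 kb from the nearest CM Lamin B domain, and the chromosome 12 domain 4771 kb. ESC H3K9me2 covered 63.4% to 90.2% of these 5, and ESC Lamin B covered none of them except 23.7% of the chromosome 9 domain.

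The median distance of these domains to Lamin B was 768.5 kb, 178 (43.4%) were at least 1 Mb away and 53 (12.9%) were within 100 kb. The share of all sequence outside Lamin B that lies as near was not measured, so these counts have no background. Most such sequence lay in long gaps, since gaps of 1 Mb or more held 1094 of the 1256 Mb between neighbouring Lamin B domains. The median distance was 423 kb for H3K9me2 domains under 200 kb, 971 kb from 200 kb to 1 Mb and 1572 kb for the 11 longest. ESC H3K9me2 covered at least 50% of 309 of the 410 (75.4%), against 592 of the 635 H3K9me2 domains (93.2%) that touched 1 CM Lamin B domain. By length class this was 73.0% against 82.3% under 200 kb and 75.8% against 91.2% from 200 kb to 1 Mb. At 1 Mb or more it was 100% (11 of 11) against 99.2%. Of the 309, 286 had no ESC Lamin B either. Only 20 of the 410 (4.88%) were at least 50% Lamin B in ESC, against 488 of the 635 H3K9me2 domains (76.9%) that touched 1 CM Lamin B domain. Within length classes the shares were 5.66% against 64.6% under 200 kb, 4.17% against 68.5% from 200 kb to 1 Mb, and 9.09% (1 of 11) against 91.1% at 1 Mb or more. The median of the authors' score per Mb was lower without contact in each class. It was 21.9 against 26.4 for domains touching 1 Lamin B domain under 200 kb, 18.9 against 25.2 from 200 kb to 1 Mb, and 26.5 against 29.5 at 1 Mb or more. The quartiles still overlapped in each class, for example 15.5 to 23.0 against 20.3 to 28.9 in the middle one.

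H3K9me2 domains that spanned several Lamin B domains were few. They numbered 95 of 1140 (8.33%, 6.87 to 10.1), of which 81 touched 2, 10 touched 3 and 4 touched 4. None of 238 was under 200 kb, 34 of 582 (5.84%) lay between 200 kb and 1 Mb, and 61 of 320 (19.1%) were of 1 Mb or more. A longer H3K9me2 domain has more room for several Lamin B domains, so this count alone follows length. With only the domains at or above the median score of their list, 428 for Lamin B and 577 for H3K9me2, the share was 1.91%. The score rose with domain length, with Pearson's r of 0.961 for Lamin B and 0.945 for H3K9me2. The filter left 2 Lamin B domains under 200 kb, so the lower share cannot be told apart from the loss of short domains. The 4 that touched 4 were chr15:67020001-72560000 (5.54 Mb, 82.0% in Lamin B), chr16:25080001-28820000 (3.74 Mb, 75.3%), chr15:89440001-92060000 (2.62 Mb, 85.3%) and chr10:86540001-87560000 (1.02 Mb, 66.9%). In ESC, Lamin B covered 70.0%, 48.1%, 67.6% and 74.9% of them. The first, drawn in the lower map above, held Lamin B domains of 880, 473, 2783 and 407 kb with gaps of 374, 187 and 209 kb.

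Such H3K9me2 domains bridged 113 of the 807 gaps between neighbouring Lamin B domains (14.0%, 11.8 to 16.6). Shorter gaps were bridged more often. A bridge needs 1 H3K9me2 domain across the whole gap, so this share alone follows gap length. Bridging took in 46 of 80 gaps under 50 kb (57.5%, 46.6 to 67.7), 38 of 154 from 50 to under 200 kb (24.7%, 18.5 to 32.0), 29 of 284 from 200 kb to 1 Mb (10.2%, 7.20 to 14.3) and 0 of 289 longer ones, which allows up to 1.31%. Gaps under 50 kb had a median of 33 kb, not far above the 20 kb that the grids leave unresolved. Bridged gaps had a median of 88 kb and a longest of 990 kb. Among gaps of 1 Mb or more, H3K9me2 held 16.6% of the sequence and left 10 untouched.

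The sequence that carried only 1 of the marks can be placed from these counts. Lamin B without H3K9me2 came to 43.6 Mb, of which 34.3% lay in domains that no H3K9me2 touched, 29.6% at uncovered edges and 36.1% inside domains, between H3K9me2 domains. H3K9me2 without Lamin B was 5.54 times as much, 241.3 Mb, of which 52.5% lay in domains without contact, 40.0% in margins beyond the outermost Lamin B edge and 7.54% in bridges between Lamin B domains.

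Each autosome had a majority of well-covered Lamin B domains and of H3K9me2 domains in contact. The share of Lamin B domains with at least 90% coverage ran from 72.7% on chromosome 11 (24 of 33) to 89.5% on chromosomes 15 and 18 (34 of 38 on each), with a median of 82.5% over the 19 chromosomes. Covered edges ran from 58.0% on chromosome 6 to 82.4% on chromosome 10, and the median outward distance from 44 kb on chromosome 2 to 193.5 kb on chromosome 15. H3K9me2 contact was lowest on chromosome 14, at 30 of 56 domains (53.6%), and highest on chromosome 19, at 26 of 30 (86.7%). Chromosome 10 was the only autosome on which every Lamin B domain touched H3K9me2. Chromosome 11 had the least Lamin B (29.6% of its span) and the least H3K9me2 (38.2%), and chromosome 3 the most of both (61.7% and 65.0%). Across the 19 chromosomes, which are not replicates, Lamin B share of the span and H3K9me2 contact had Pearson's r of 0.037 and Spearman's rho of 0.012.

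**Figure D5:**
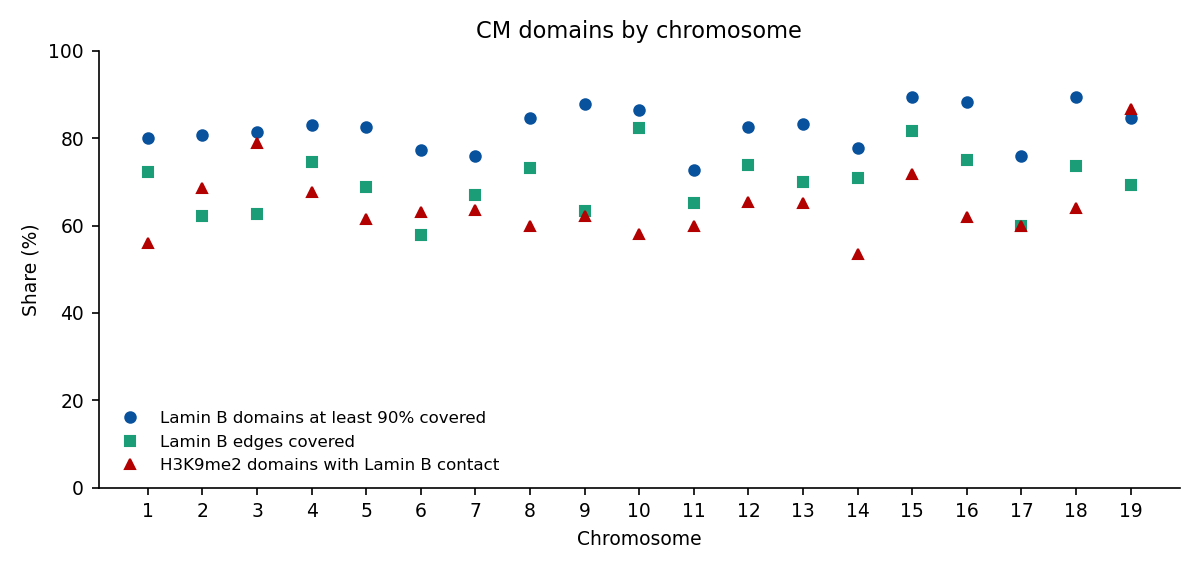
Shares for each of the 19 autosomes in CM, in percent. Blue circles are Lamin B domains with at least 90% H3K9me2 coverage (72.7% to 89.5%), green squares are Lamin B edges in H3K9me2 (58.0% to 82.4%), and red triangles are H3K9me2 domains with Lamin B contact (53.6% to 86.7%). Blue circles lie above green squares on each chromosome.

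The ESC lists, which may not stand for wild-type ESC alone, were measured in the same way. The share of Lamin B domains with at least 90% coverage was 74.9% (530 of 708) in ESC and 82.1% in CM, and it was higher in CM on 13 of 19 chromosomes. By length class it was 72.3% in ESC against 68.7% in CM under 200 kb, 73.3% against 82.1% from 200 kb to 1 Mb, and 79.0% against 94.6% at 1 Mb or more, so the shortest class went the other way. Domains without any H3K9me2 were 20 of 708 in ESC and 81 of 826 in CM. Lamin B outside H3K9me2 lay mainly in breaks inside domains in ESC (69.8% of 66.1 Mb), where whole domains made up 6.09%, against 36.1% and 34.3% in CM. The median outward distance from covered edges was 27 kb in ESC and 78.5 kb in CM and was longer in CM on 19 of 19 chromosomes. The signed median was 3 kb against 15 kb. ESC edges lay on grids of 9 and 10 kb, finer than the 11 and 20 kb of CM. A finer grid can also split domains more finely. The differences in edge values, coverage and breaks thus cannot be told apart from the grids.

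H3K9me2 contact with Lamin B was 46.6% in ESC and 64.0% in CM, and higher in CM on 19 of 19 chromosomes. Within the classes contact was 29.5% in ESC against 33.2% in CM under 200 kb, 64.5% against 58.8% from 200 kb to 1 Mb, and 97.0% against 96.6% at 1 Mb or more. The middle class was thus the reverse of the whole, and the longest class was nearly equal, slightly higher in ESC. Only the shortest class went the way of the whole. The ESC list held 1497 of 2431 H3K9me2 domains under 200 kb and the CM list 238 of 1140. H3K9me2 domains spanning at least 2 Lamin B domains were 48 (1.97%) in ESC and 95 (8.33%) in CM. The shortest H3K9me2 domain was 20 kb long in ESC, on a grid of 10 kb, and 40 kb in CM, on a grid of 20 kb. Numbers of domains, contact and spanning depend on how finely domains are split, so cell type and grid cannot be told apart here either. No difference between cell types was tested.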

How the data were processed

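The submitters' processing notes name mm9, STAR, Picard and deepTools. Per the file headers, domains were called with g 10, automatic bins and fdr 5; no source used here names the caller. Each deposited list holds domain positions and the authors' score per domain, of unknown scale, used only to describe and filter domains within a list. A shared base counted as contact. Overlaps were computed in Python 3.11.15 (pandas 2.3.3, numpy 2.4.6), intervals with scipy 1.17.1 and figures with matplotlib 3.10.9. The interval code was checked base by base on simulated domains. The named domains are the 5 longest Lamin B domains without H3K9me2 (also the 5 longest under 50% coverage), the 5 longest H3K9me2 domains without contact, the 5 of each list touching most of the other, the 5 longest outward edges and the longest of each list. Those named for low but nonzero coverage, low coverage at 1 Mb or more, or long margins were picked after their values were seen. Comparisons, length classes and rules were chosen with earlier results of these data known. Alternatives were a score filter, merged, trimmed or regridded domains, other coverage thresholds, X, and chromosome 3 without its distal part. Depth is unknown. No annotation or genome of mm9 was used, so no genes or sequences are given. Input libraries were not analysed here.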

Additional observations from a re-analysis of the deposited data

How the results depend on the processing

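Of 45 alternatives to the 6 main values, 29 stayed inside the main value's 95% interval. The cause of the others was not tested unless stated. The 29 include alternatives that could hardly move a value. Trimming both lists by 20 kb largely keeps the edges in place relative to each other. Leaving out distal chromosome 3 kept 825 of the 826 Lamin B domains and 1139 of the 1140 H3K9me2 domains. Lamin B domains with at least 90% coverage (82.1%) were 79.2% with 20 kb removed from each end and 78.9% with X; by construction 89.3% reached a threshold of 50% and 50.7% one of 100%. Domains touching exactly 1 H3K9me2 domain (82.6%) were 85.1% after merging across gaps under 100 kb. Covered edges (69.4%) were 66.7% with weaker-scoring domains dropped at the median, 72.3% after merging, 66.5% with X, and 80.1% with edges moved to multiples of 20 kb, where near edges coincide. The outward median (78.5 kb) was 61 kb under the score filter, 60 kb on the 20 kb grid and 46 kb without edges facing another Lamin B domain. H3K9me2 contact (64.0%) was 73.5% under the score filter, which left no domain under 200 kb and gave 52.1% (58.8%) from 200 kb to 1 Mb and 90.6% (96.6%) at 1 Mb or more, and it was 67.1% after merging. Spanning at least 2 (8.33%) was 1.91% under the score filter and 6.15% after merging. Because the score rose with length, the score filter dropped shorter domains. The order of the length classes held in each of the 6 alternatives of the domains for coverage and edges, and in the 5 that left short H3K9me2 domains for contact and spanning; the score filter left 2 Lamin B domains under 200 kb. The signed median was 12 to 26 kb. Alternatives by length class, on edges at chromosome ends and on facing edges were added after the data were seen. No paired analysis was possible because the lists carry no values of single libraries, and leaving out a library was impossible for the same reason. With the depth unknown, the lack of a domain may reflect too few reads.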

Other observations

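The X chromosome stood outside the range of the autosomes in CM. H3K9me2 covered at least 90% of 53 of its 101 Lamin B domains (52.5%, Wilson 95% interval 42.8 to 61.9), below the lowest autosome, and 27 touched no H3K9me2. The median Lamin B domain on X was 198 kb long, against 407 kb on the autosomes, but the share was also lower within each length class, at 33.3% (17 of 51) under 200 kb, 70.0% (21 of 30) from 200 kb to 1 Mb and 75.0% (15 of 20) at 1 Mb or more. Lamin B edges on X lay in H3K9me2 in 43.1% of cases. H3K9me2 contact was the reverse, at 85 of 96 domains (88.5%), above the highest autosome. By sequence, 92.8% of Lamin B on X was in H3K9me2 and 95.5% of H3K9me2 was in Lamin B. In ESC, the share of Lamin B domains on X with at least 90% coverage was 67.8% (40 of 59), and 5 touched no H3K9me2. These values for X were looked at after the autosomes, and no difference was tested.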
